A study of Xenopus laevis with 6 samples.

Results

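A set of 849 exonic circular RNAs (circRNAs) was read in every library of a testis RNA-seq study in Xenopus laevis, the African clawed frog. The deposited circRNA table holds 68575 rows, 53228 of them catalogued as exonic, and a row was taken when it was exonic and had at least 2 reads across its back-splice junction in each of the 6 libraries. The members were 1.60% of the exonic rows and 1.24% of all rows. They held 70251 of the 369648 junction reads (19.0%), and since the members were chosen by these read counts, their read levels are given as a description.

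A circRNA forms when the spliceosome joins the end of an exon back to the start of the same or an earlier exon, which leaves a closed ring without a cap or a poly(A) tail. Rings resist exonucleases and can outlast the linear mRNA of their host gene, and testis and brain are known as tissues rich in them. The frog is an allotetraploid whose chromosomes come in paired sets marked L and S, so many hosts exist as 2 near-copies.

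Atrazine is a triazine herbicide. The atrazine group had 3 libraries, from testes of animals that spent 180 days in atrazine at 100 µg/L. In the control group 3 libraries came from testes of animals without exposure. Both groups were sampled at postnatal day 193. The labels do not say whether a library came from 1 animal or from pooled testes, and a p-value therefore reflects how much these libraries varied, which may be technical. The germ cell markers ddx4.L and dazl.L averaged 355 and 463 FPKM over the 6 libraries, whereas the measured ovary marker rows lay between 0.143 and 3.79 FPKM.

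The rings were short and covered a small stretch of their hosts. Spliced length is a predicted value in the deposited data. It ran from 102 to 3867 bases with a median of 412 bases, and the interquartile range was 290 to 616 bases. A length of 200 to 700 bases was found in 648 rings (76.3%), and 76 rings (8.95%) exceeded 1000 bases. Among the 40774 exonic circRNAs read in 1 library, the median was 458 bases, 60.4% had 200 to 700 bases and 15.8% exceeded 1000 bases. For those read in 5 libraries the values were 454 bases, 71.0% and 12.3%. These contrasts across circRNAs are descriptions without a test. Lengths divisible by 3 made up 35.0% of the 849 rings and 39.7% of the exonic circRNAs read in 1 library.

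Genomic span, the distance between the joined ends including introns, ran from 102 to 93211 bases with a median of 2221 bases. The median span was 3137 bases for exonic circRNAs read in 1 library and 3081 bases for those read in 5 libraries, just short of the rule. Span and predicted spliced length were equal, so no intron was predicted between the joined ends, in 108 rings (12.7%). The share was 15.2% for exonic circRNAs read in 1 library and 12.5% for those read in 5. A ring spanned a median of 5.59% of its host locus, against 7.51% for exonic circRNAs read in 1 library and 6.30% for those read in 5. Across the 849 rings, spliced length and span had a Spearman correlation of 0.65.

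**Figure D1:**
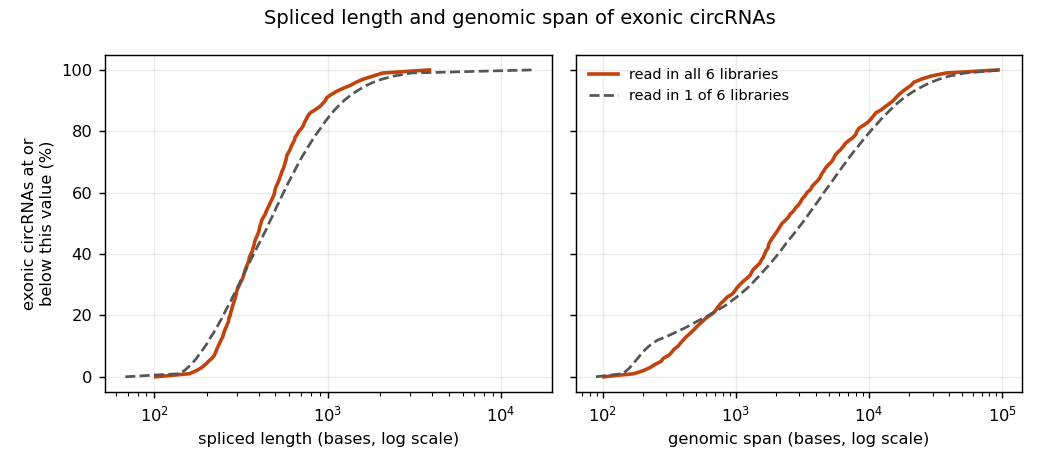
Cumulative share (y axis, percent) of exonic circRNAs by spliced length (left) and genomic span (right), in bases on log axes, for the 849 circRNAs read in all 6 libraries (solid) and the 40774 read in 1 library (dashed). The solid curves cross the midpoint at 412 and 2221 bases, to the left of 458 and 3137 bases for the dashed curves.

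The longest and shortest rings mark the limits of the set. The longest had 3867 bases and came from LOC108701430, which annotation v10.1 calls map2.L, and the next, of 3837 bases, from its S copy map2.S. The host gene encodes a microtubule-associated protein of neurons. A ring of LOC100158416 (zhx3.L in v10.1), the host gene of a zinc finger and homeobox protein, had 2922 bases without a predicted intron. The shortest, of 102, 132 and 135 bases, came from LOC108707346 (ier3ip1.S), LOC108718795 (c10orf67.L) and LOC108696880, a histone-lysine N-methyltransferase 2B-like gene. The widest span, 93211 bases, belonged to an 895-base ring of nfia.S, a nuclear factor I transcription factor gene. A ring of LOC108711204 (cacna2d1.L, a calcium channel subunit gene) followed with 68000 bases, and a ring of fzr1.L, which encodes an activator of the anaphase-promoting complex, with 54030 bases. The 102-base and 135-base rings and a 140-base ring of LOC108708867 (son.S, the gene of a splicing cofactor) were the narrowest.

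Rings seldom began or ended exactly at the annotated ends of their hosts. A host row was joined only where the ring lay inside its locus, so a position inside the host was fixed in advance. The ring's 5′ end lay at a median of 44.5% of the host locus. The median was 49.5% for exonic circRNAs read in 1 library and 40.5% for those read in 5. Of the 843 rings with a host row in the mRNA table, 229, 264, 230 and 120 began in the 4 equal parts of the locus, counted from its 5′ end. A ring began exactly at the annotated host start in 2 cases (0.237%) and ended exactly at the host end in 1 case. The share at the host start was 0.114% for exonic circRNAs read in 1 library and 0.705% for those read in 5. The plus strand carried 395 rings and the minus strand 454.

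The 849 rings came from 755 host names. Most hosts gave 1 ring. In all, 686 hosts had 1 member, 54 had 2, 9 had 3, 4 had 4, 1 had 5 and 1 had 7. The 69 hosts with more than 1 member (9.14%) held 163 rings. Hosts of members had a median of 7 circRNA rows of any kind, against 2 over all 16743 host names, and the member rings held a median of 73.1% of all junction reads of their host. In 593 hosts the members held over 50% of those reads. The rule picks rings read in every library, which favours well-read hosts and high shares, so these values are a description. The host with the most rows, 75, was LOC108704017 (dnah12.L, an axonemal dynein heavy chain gene), whose 2 members held 26.3% of its junction reads.

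Rings of 1 host often shared an end. Among 136 pairs of member rings from the same host, 48 shared the 5′ end and 24 the 3′ end, together in 50 hosts. Another 8 pairs were nested without a shared end, 2 overlapped, and 54 lay apart.

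The host with 7 rings was brdt.L, the gene of the testis-specific bromodomain protein, which binds acetylated histones in male germ cells. It lies on chromosome 4S and is called brdt.S in v10.1. Its rings had 1365, 699, 327, 1131, 2083, 1556 and 243 bases, with 91, 89, 69, 49, 38, 28 and 26 junction reads over the 6 libraries. The 4 rings of 2083, 1556, 1365 and 699 bases began at the same position, 3095 bases from the host start, and ended at 4 different positions. The 699-base and 327-base rings shared their 3′ end, as did the 1365-base and 1131-base rings. In all, the 7 rings held 390 of the 555 junction reads of the host (70.3%), whose mRNA averaged 55.4 FPKM.

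The host with 5 rings was mybl1.L, the gene of A-MYB, a transcription factor of meiotic male germ cells. Its rings had 228, 268, 739, 667 and 546 bases with 123, 72, 58, 33 and 32 reads. The rings of 268, 667 and 739 bases shared 1 start, and those of 228 and 546 bases shared another. Hosts with 4 rings were LOC108719438 (dennd3.L, a vesicle trafficking gene), pcm1.L (a centriolar satellite scaffold), brd2.S (a bromodomain gene) and LOC108716375, annotated as piwi-like protein 1, which acts with germline small RNAs. Their rings held 197, 184, 160 and 145 reads in total. The 4 pcm1.L rings held 35.2% of the junction reads of that host, which averaged 209 FPKM.

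Hosts with 3 rings included zpbp2.L, the gene of a sperm protein that binds the egg coat. The zpbp2.L rings of 501, 375 and 579 bases had 260, 191 and 88 reads and shared their 3′ end. They held 96.1% of the host's junction reads.

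**Figure D2:**
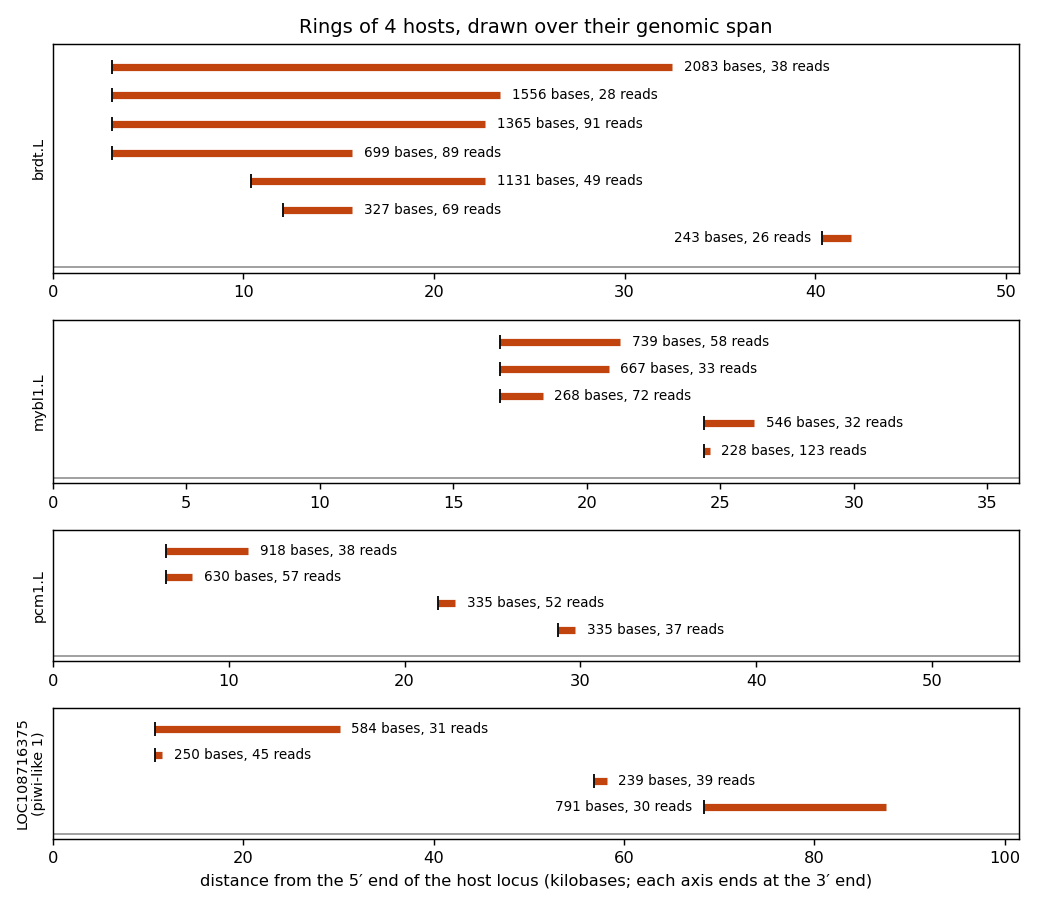
Genomic span of the rings of brdt.L, mybl1.L, pcm1.L and LOC108716375, drawn as bars by distance from the 5′ end of the host locus (x axis, kilobases); ticks mark each ring's 5′ end, and labels give spliced length and reads summed over 6 libraries. The brdt.L panel shows 4 bars starting at 3095 bases, and the mybl1.L panel 2 shared starts.

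Both chromosome sets gave rings in about the proportion of their genes. Of 820 rings on placed chromosomes 492 lay on L chromosomes, and of 15266 placed mRNA rows tested 9402 (61.6%) did. Per 100 tested mRNA rows, members ranged from 3.97 on chromosome 8L to 8.86 on chromosome 6S. Among 608 host symbols with a known copy, 355 had rings from L only, 232 from S only and 21 from both. Whether the other copy of a host exists or is expressed was not counted. Reads of near-identical copies can be assigned to either, and the sources used here do not say how the authors treated them.

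In 7 of the 21 symbols with rings from both copies, an L and an S ring had the same spliced length. Among them were prdm4 (269 bases), ptprf (288), lrrc1 (287), mybl1 (268), snx10 (337) and tom1l2 (282). In another 2 the closest lengths differed by 12 bases or less, with nr3c2 at 1750 bases on L and 1759 on S and syde2 at 1905 on L and 1899 on S. The closest rings of the remaining 12 differed by more. A further pair of equal length, 613 bases, came from hosts deposited as jarid2.L, which is unplaced, and jarid2.S, which lies on chromosome 6L, and was not counted, since both were taken as L. The L copy of prdm4 is also unplaced and was taken as L from its name.

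Among the 6 symbols with most reads were srcap, slc4a8, ncor1, cep170 and tom1l2. Equal length did not bring equal reads for tom1l2. Its 282-base ring had 47 reads on L and 283 on S, with host levels of 9.81 and 12.7 FPKM. For cep170, a centrosomal gene, the L ring of 1644 bases had 437 reads and the S ring of 539 bases had 49. The gene srcap, which encodes a chromatin remodelling ATPase, had 129 reads in 3 L rings and 714 reads in 2 S rings. The transporter gene slc4a8 had 594 reads in 2 L rings and 23 in 1 S ring. The corepressor gene ncor1 had 215 reads in 1 L ring and 337 in 2 S rings.

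The 849 rings had 15 to 795 reads each over the 6 libraries, with a median of 56. Libraries differed in depth: 63622, 52138 and 37092 junction reads in atrazine replicates 1 to 3, against 69338, 86265 and 61193 in control replicates 1 to 3. A median ring had 10, 8 and 6 reads with atrazine, against 11, 12 and 8 reads without. At this depth 254 rings sat at the limit of 2 reads in at least 1 library, and 345 had 5 or more in each. No count of 1 occurs in the table. Intervals from such counts would cover counting error only, since PCR copies cannot be told from separate molecules.

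Just inside the limit lay rings of LOC108698068 (kelch-like protein 5), LOC108716840 (afg1l.L) and LOC108718276 (cd2ap.S), each with 15 reads in all. Just outside were the most-read rings missing from 1 library. A 1761-base ring of dmd.1.L, a dystrophin gene, had 117, 44 and 53 reads in atrazine and 81, 171 and 0 in control. A 220-base ring of LOC108700239, a tubulin beta chain gene, had 0, 43 and 36 reads in atrazine and 111, 82 and 39 in control. A 548-base ring of plppr5.L had 23, 29 and 24 reads in atrazine and 69, 31 and 0 in control. Rows missed in 1 library only numbered 89, 193 and 306 for atrazine replicates 1 to 3 and 76, 44 and 147 for control replicates 1 to 3, most in the shallowest library.

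The 10 most-read rings held 5865 reads, 8.35% of the members' total, and are taken here by mean junction CPM (reads per 1000000 junction reads). The highest was a 370-base ring of ddx17.L, an RNA helicase gene, on chromosome 4L from 113007026 to 113008454. It had 117, 80 and 154 reads in atrazine and 264, 176 and 4 in control. The value of control replicate 3 stood far below the other 5 libraries. The ddx17.L mRNA had 73.9, 79.3 and 82.7 FPKM in atrazine and 87.5, 69.4 and 63.8 FPKM in control, with no such low value.

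Next came a 366-base ring of snx15, a sorting nexin of endosomes, with 172, 74 and 83 reads in atrazine and 74, 243 and 128 in control. A 972-base ring of elk4.S, an ETS transcription factor gene, had 98, 134 and 79 reads in atrazine and 90, 160 and 52 in control. The groups overlapped for both. Next by mean CPM was a 452-base ring of ddx4.L, the germ cell helicase gene also known as vasa, on chromosome 1L from 195231912 to 195233603. It had 106, 82 and 66 reads in atrazine and 140, 138 and 82 in control, and its host mRNA averaged 355 FPKM.

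The other 6 came from a range of gene functions. A 725-base ring of LOC108708613 (slc4a8.L, a bicarbonate transporter) had 99, 99 and 62 reads in atrazine and 100, 141 and 43 in control. A 581-base ring of LOC108709624, annotated as the histone-binding protein RBBP7, had 95, 96 and 51 reads in atrazine and 82, 134 and 89 in control. A 272-base ring of LOC108703262 (srcap.S) had 68, 93 and 23 reads in atrazine and 110, 148 and 93 in control. The lowest atrazine count of all 3 was in replicate 3, the shallowest library. A 193-base ring of tbca.S, a tubulin folding cofactor, had 57, 34 and 70 reads in atrazine and 122, 112 and 84 in control. A 251-base ring of samhd1.L, which encodes a nucleotide hydrolase, had 69, 84 and 42 reads in atrazine and 120, 104 and 63 in control. A 645-base ring of LOC108719236, a coiled-coil domain-containing protein 178-like gene, had 97, 46 and 32 reads in atrazine and 68, 143 and 96 in control. Scaled to all junction reads, every one of these rings overlapped between the groups, as the plot of the 10 rings shows.

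**Figure D3:**
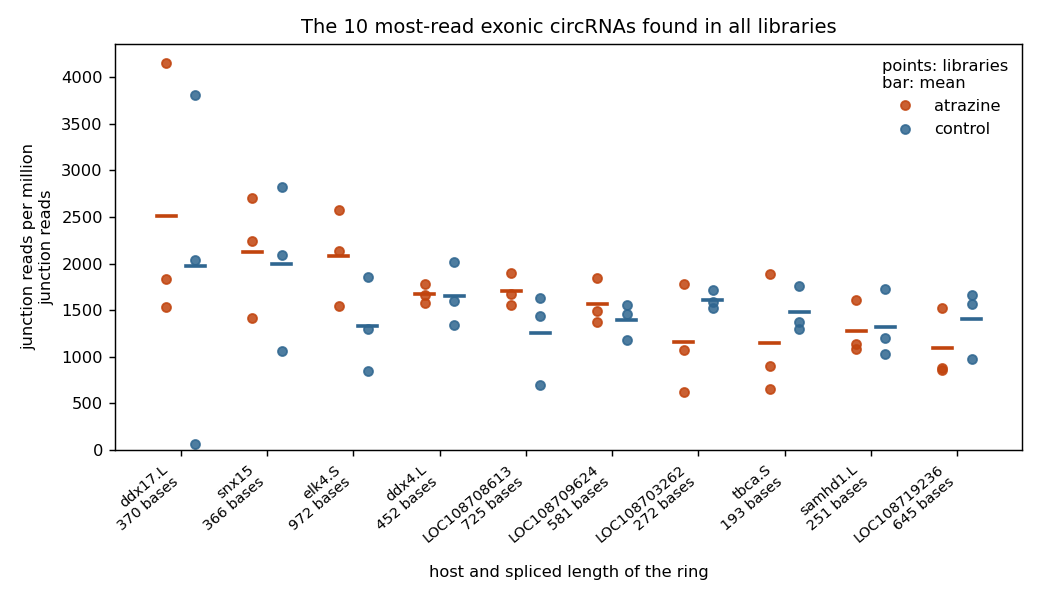
Junction CPM (reads per 1000000 junction reads; y axis, linear from 0) of the 10 most-read rings in each library (points) with the mean of 3 (bar), atrazine left of control. The ddx17.L point near 0 is control replicate 3, with 4 reads, against 264 and 176 in the other control libraries.

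Replicates of a group differed by a median of 2.17-fold between the highest and lowest scaled count in atrazine and 2.22-fold in control. In 11 rings the range exceeded 10-fold within a group, and 5 of these had 100 reads or more. The ddx17.L ring spanned 58.1-fold among controls. The other 4 were rings of ica1.S (606 bases), borcs5.L (158 bases), LOC108718337 (nrbp1.S, 539 bases) and LOC108703054 (inactive phospholipase C-like protein 1, 2856 bases). The ica1.S ring had 2, 25 and 15 reads in atrazine and 49, 28 and 2 in control, while its host mRNA stayed between 59.8 and 85.1 FPKM in all 6 libraries. Over the 15 pairs of libraries, the Spearman correlation of member counts lay between 0.50 and 0.67 across the 849 rings.

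Junction reads of the members varied little with the level of the host mRNA. The hosts' mRNA averaged a median of 15.8 FPKM over 749 host rows, against 8.85 FPKM over 23824 mRNA rows tested, with or without rings. Taken per ring, the median host level was 16.4 FPKM for the members. It was 14.8 FPKM for exonic circRNAs read in 1 library and 16.1 FPKM for those read in 5, so it was not particular to the set. Within the set, junction CPM and host FPKM had a Spearman correlation of 0.074 across 843 rings, and of 0.052 to 0.13 in single libraries. Summed per host the value was 0.12 over 749 hosts, and over all 52831 exonic circRNAs with a host row it was 0.043. Each point shares its libraries with all others. Rings inside a host also add reads to the host's FPKM where these were not separated. The rule sets a floor on the members' junction reads, which narrows their range. For these reasons the values carry no p. By quartile of host FPKM, from lowest to highest, the median ring had 136, 144, 180 and 151 CPM. Across the 849 rings, junction CPM had a Spearman correlation of −0.11 with spliced length and −0.18 with span.

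The ratio of ring CPM to host FPKM ran from 0.115 to 312 with a median of 9.89. The highest ratio was that of a 534-base ring of LOC108711262, an SH3 and multiple ankyrin repeat domains protein 3-like gene, a family of synaptic scaffolds. It had 15, 14 and 7 reads in atrazine and 13, 38 and 6 in control, from a host at 0.757 FPKM. A 198-base ring of entpd4.L, a nucleotide-hydrolysing enzyme gene, followed at a ratio of 267. It had 22, 35 and 32 reads in atrazine and 79, 50 and 29 in control, from a host at 2.55 FPKM. Rings of LOC108695679 (G-protein coupled receptor 98-like, 593 bases) and LOC108695595 (myom1.S, the gene of a muscle M-band protein, 352 bases) had ratios of 225 and 220 at host levels of 0.906 and 1.20 FPKM. The srcap.S ring reached 203 at a host level of 6.82 FPKM. Of the 843 rings, 4 had a host below 1 FPKM and 31 a host above 100 FPKM.

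At the other end, a 283-base ring of rpl32.L, a ribosomal protein gene at 1227 FPKM, had the lowest ratio, 0.115. It had 12, 9 and 7 reads in atrazine and 6, 11 and 5 in control. Of the 4 rings of LOC108716375 (piwi-like protein 1, 399 FPKM), 3 were next at 0.202, 0.238 and 0.289, beside a ring of the uncharacterized LOC496283 at 0.243 from a host at 576 FPKM.

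**Figure D4:**
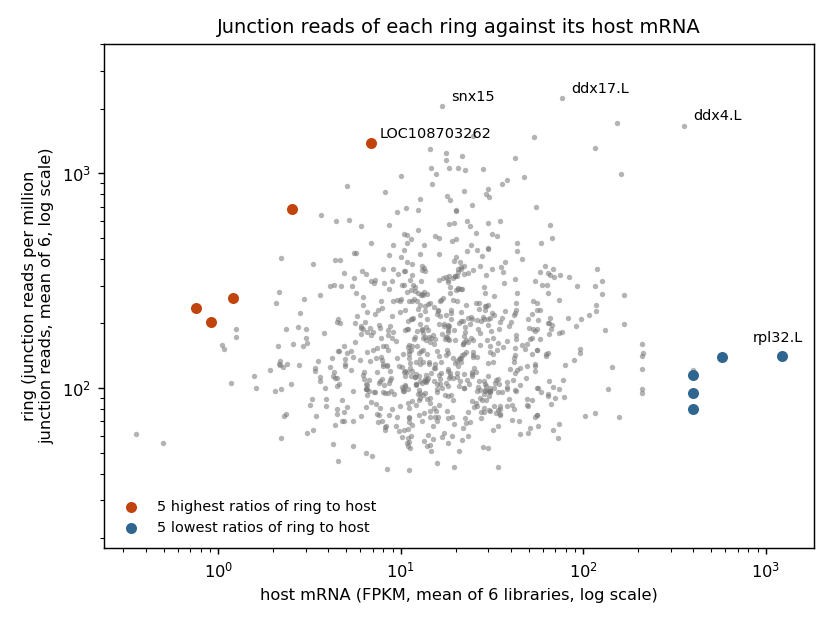
Mean junction CPM of each ring (y axis, log) against mean host FPKM (x axis, log), over 843 rings and 6 libraries, with the 5 highest and 5 lowest ratios of ring to host coloured. The cloud shows little slope (Spearman 0.074), and rpl32.L at 1227 FPKM lies far right of srcap.S (LOC108703262) at 6.82 FPKM although the rpl32.L ring had fewer reads.

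Atrazine and control were then compared, ring by ring. In whole testis, fewer cells of a type and less RNA per cell cannot be told apart. The share of all junction reads held by the 849 rings was 18.9%, 19.7% and 20.1% with atrazine, against 19.5%, 18.9% and 17.5% without. The means were 19.5% ± 0.593 in atrazine and 18.6% ± 1.03 in control (SD, n = 3 each), a difference of 0.918 percentage points, and the groups overlapped. The rule used these counts, so the share is a description with no test. Its highest value was in atrazine replicate 3, the shallowest library.

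With edgeR's quasi-likelihood test on all 6592 circRNA rows with 2 reads in at least 3 libraries, none of the 849 rings passed an adjusted p of 0.05, and over all rows tested 0% did. The smallest adjusted p of a ring was 0.630. An unadjusted p under 0.05 was found for 18 rings, or 2.12% of the rings against 6.28% of all rows tested. Of these, 2 were higher in atrazine (0.236%, against 1.23% of all rows) and 16 lower (1.88%, against 5.05%). The rule keeps rows with zeros out of the set, so nothing is read from that lower share. DESeq2 called none and gave 6 rings an unadjusted p under 0.05 (0.707%, against 2.21% of all rows). Counts of the 6592 rows were simulated with a biological coefficient of variation of 0.316, the spread between replicates beyond counting error. On them, edgeR recovered 56.5% of 200 changes of 4-fold planted in these rings. The coefficient estimated over all 6592 real rows was larger, 0.864, though it was 0.333 on rows read in all 6 libraries. The share recovered in the simulation therefore does not carry over to the fit on all rows, and changes of 4-fold could be missed.

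Fits on other rows or values moved these counts. On the 1061 rows read in all 6 libraries, the biological coefficient of variation was 0.333 and edgeR called none. It gave 48 rings an unadjusted p under 0.05 (5.65%, against 5.66% of those rows). Without a filter it again called no ring, against 0.00437% of all rows, and gave 9 rings an unadjusted p under 0.05 (1.06%, against 0.494%). With limma on the deposited log2 values 1 ring passed the adjusted threshold (LOC108718337, 539 bases), against 0.0607% of all rows. That fit gave 62 rings an unadjusted p under 0.05 (7.30%, against 9.07% of all rows). Without control replicate 2, edgeR gave 10 rings such a p (1.18%, against 4.08%).

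The median log2 fold change was −0.19 over the 849 rings and −0.26 over all rows tested, and 323 rings (38.0%) had a positive value against 40.4% of all rows. These values depend on scaling: with total junction reads in place of TMM factors the medians were 0.06 and −0.04. Median-of-ratios factors gave −0.24 and −0.31, and limma on the deposited log2 values gave −0.58 over the rings. Library depth was lower on average in atrazine (50951 junction reads, against 72265 in control), though the groups overlapped. The TMM factors did not overlap, at 0.992 to 1.24 in atrazine and 0.850 to 0.952 in control. The part of depth in the medians was not tested. After TMM scaling the groups did not overlap in 27 rings with higher atrazine values (3.18%, against 3.26% of all rows) and in 67 with lower values (7.89%, against 8.18%), shares near the background.

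The ring with the smallest p came from LOC108711418 (whamm.L, which encodes an actin-nucleating protein of membranes), with 661 bases on chromosome 3L from 95458531 to 95464536. It had 6, 4 and 4 reads in atrazine and 18, 26 and 21 in control, without overlap. Its log2 fold change was −1.93 ± 0.64, where the SE was derived from the test statistic. The unadjusted p was 0.00574 and the adjusted p 0.630 in edgeR. A 616-base ring of LOC108710998, an oocyte-specific histone RNA stem-loop-binding protein 2-like gene, had 20, 10 and 10 reads in atrazine and 26, 39 and 47 in control (log2 fold change −1.26). A 537-base ring of LOC108699986 (atp2b3.S, a plasma membrane calcium pump) had 13, 19 and 7 reads in atrazine and 32, 75 and 17 in control (−1.35). These last groups overlapped once scaled, and without control replicate 2 the log2 fold change was −0.72.

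A 370-base ring of LOC108717980 (znf292.S, a zinc finger gene) had 16, 5 and 4 reads in atrazine and 26, 34 and 20 in control (−1.44). A 539-base ring of LOC108718337 (nrbp1.S, a pseudokinase gene) had 4, 38 and 37 reads in atrazine and 37, 138 and 88 in control (−1.36). Without atrazine replicate 1, its log2 fold change was −0.82.

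Toward higher atrazine values, a 540-base ring of chmp5.S, an ESCRT membrane-scission gene, had 9, 17 and 8 reads in atrazine and 3, 7 and 3 in control (log2 fold change 1.65, unadjusted p 0.0474 and adjusted p 0.771 in edgeR). A 298-base ring of yme1l1.L, which encodes a mitochondrial protease, had 13, 6 and 12 reads in atrazine and 4, 4 and 3 in control (1.74). Neither overlapped between groups. Rings of LOC108709472 (lamina-associated polypeptide 2-like, 197 bases), the host deposited as tia1 (tial1.L in v10.1, an RNA-binding protein gene, 205 bases) and LOC108717133 (rasa2.L, a Ras GTPase-activating protein gene, 190 bases) had log2 fold changes of 1.29, 1.45 and 1.07 with unadjusted p above 0.05. The LOC108709472 value was 0.83 without atrazine replicate 3, and the tia1 value 0.96 without atrazine replicate 1.

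**Figure D5:**
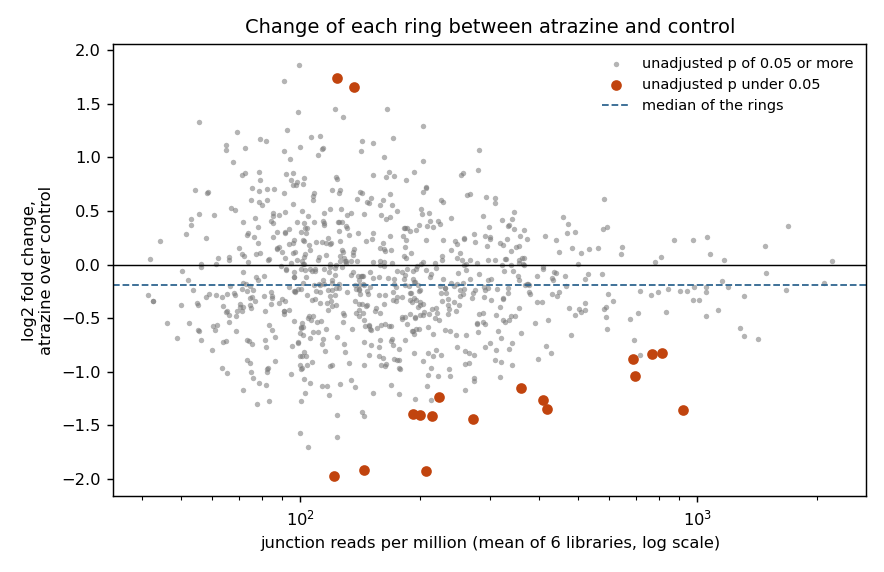
Log2 fold change of atrazine over control (y axis) from edgeR against mean CPM after TMM scaling (x axis, log) for the 849 rings, with the 18 rings of unadjusted p under 0.05 coloured and the median of −0.19 dashed. Of the coloured points 2 lie above 0 and 16 below, and none passed the adjusted threshold.

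The hosts gave no call either. With limma on log2(FPKM + 1), 0 of 748 host rows passed an adjusted p of 0.05, as did 0% of the 23824 mRNA rows tested. The smallest adjusted p of a host was 0.693. An unadjusted p under 0.05 was found for 30 hosts (4.01%, against 5.92% of all rows), 20 of them higher in atrazine (2.67%, against 3.32%) and 10 lower (1.34%, against 2.59%). The groups did not overlap in 65 hosts with higher atrazine values (8.69%, against 6.63%) and in 31 with lower values (4.14%, against 4.66%). The median log2 fold change was 0.04 over hosts and 0.04 over all rows, and 422 hosts had a positive value (56.4%, against 57.3%). The count of 30 moved with single libraries in both directions, as did the share of all rows. It was 136 without control replicate 1 (18.2%, against 19% of all rows), 6 without atrazine replicate 2 (0.802%, against 2.82%), 17 without control replicate 2 (2.27%, against 3.33%) and 10 without control replicate 3 (1.34%, against 3.3%). Without control replicate 1 a single host passed the adjusted threshold, against 0.021% of all rows. The entpd4.L mRNA had 2.92, 3.47 and 3.04 FPKM in atrazine and 2.06, 1.39 and 2.39 FPKM in control, without overlap (limma, unadjusted p 0.0164, adjusted p 0.693), while its ring overlapped between groups.

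Ring and host were also set against each other, as TMM-scaled log2 CPM of the ring minus log2(FPKM + 1) of the host. Control libraries are headed by a shorter name in the circRNA table than in the mRNA table, and the pairing of ring and host values rests on their number. Of 842 rings with a host past the FPKM filter, 0 passed the adjusted threshold in limma, and 0% of the 5816 rows tested did. The smallest adjusted p was 0.713. An unadjusted p under 0.05 was found for 9 rings (1.07%, against 6.57% of all rows), 2 with a positive difference (0.238%, against 1.63%) and 7 with a negative one (0.831%, against 4.93%). On rows read in all 6 libraries 53 rings had such a p (6.29%, against 6.2% of those rows). The count was 17 without atrazine replicate 1 (2.02%, against 7.91%), 4 without atrazine replicate 2 (0.475%, against 5.61%) and 5 without control replicate 2 (0.594%, against 4.42%). The median difference was −0.13 for the rings and −0.19 for all rows, and 316 rings had a positive one (37.5%, against 38.8%). On rows read in all 6 libraries the median of the rings was 0.02, so its sign depends on the rows used. Scaling by total junction reads was not run for this comparison.

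The largest departures from the host in the lower direction had the smallest p for the rings of znf292.S (−1.53), LOC445830 (srrm2.S in v10.1, a splicing factor gene, 223 bases, −1.46), trim24.S (a transcription cofactor, 247 bases, −1.46), whamm.L (−1.40) and mettl16.L (an RNA methyltransferase gene, 335 bases, −1.38). The srrm2.S ring had 11, 11 and 4 reads in atrazine and 22, 20 and 21 in control. The mettl16.L ring had 11, 6 and 4 reads in atrazine and 18, 19 and 22 in control. In the higher direction stood rings of chmp5.S (1.43), LOC108698736 (syne3.L, a nuclear envelope gene, 445 bases, 1.39), tmtc2.S (829 bases, 1.26), yme1l1.L (1.16) and the 1131-base ring of brdt.L (1.01). That brdt.L ring had 11, 10 and 11 reads in atrazine and 5, 5 and 7 in control, whereas the 699-base ring of the same host had 15, 9 and 9 reads in atrazine and 22, 28 and 6 in control. None of these passed adjustment.

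Gene lists placed the hosts among known functions, and no ring of any list was called. Of the 12781 gene symbols among the tested mRNA rows, with or without rings, 4.83% had a member ring. The lists were chosen with earlier results of these data known, so their shares are counts and nothing more. Matching was by symbol, and the 131 rings whose host has only a LOC or MGC number could not be counted in any list. Of 123 measured chromatin symbols 19 had one (15.4%), with 33 rings, 15 of positive and 18 of negative log2 fold change and a median of −0.06. Among them a 370-base ring of LOC108707936 (ncor1.L) had 22, 32 and 25 reads in atrazine and 47, 50 and 39 in control, before scaling. Its log2 fold change was −0.49, with an unadjusted p of 0.259 in edgeR. Rings of arid2.L, a chromatin remodeller subunit gene (294 bases), and LOC108696087 (jmjd1c.L, a histone demethylase family gene, 440 bases) had 152 and 113 reads in all.

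Of 99 ubiquitin ligase symbols 15 had a ring (15.2%), 4 with positive and 11 with negative values (median −0.38). The most read were LOC108719895 (ankib1.S, 209 bases, 136 reads), zranb1.S (834 bases, 126 reads), which encodes a deubiquitinase, cbl.L (552 bases, 125 reads) and LOC108709992 (cul5.S, 265 bases, 124 reads). The host genes ankib1 and zranb1 were also on a list of 42 measured genes known for circRNAs in other vertebrates. That list had rings for 7 symbols (16.7%), 1 positive and 6 negative (median −0.47). Its other hosts were znf292.S, aff1.L, ptk2.L, xpo1.S and znf609.L. The signs depend on scaling. With total junction reads in place of TMM factors, 150 of the 849 rings took the other sign. The split of positive and negative values was then 20 and 13 for chromatin, 6 and 9 for ubiquitin ligases, and 1 and 6, as with TMM, for the known circRNA hosts.

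Genes of sperm and germ cells were among the hosts. Of 98 flagellum and cilium symbols 11 had a ring (11.2%), with 5 rings of positive and 9 of negative value (median −0.15), against 9 positive and 5 negative with total-read scaling. The most read was a 254-base ring of dnai2.S, an axonemal dynein intermediate chain gene, with 44, 32 and 18 reads in atrazine and 29, 53 and 36 in control. Rings of LOC108696139 (cfap46.L, 640 bases), LOC108712990 (bbs4.S, 1013 bases) and LOC108718257 (wdr35.S, 215 bases) had 139, 80 and 75 reads. Of 45 meiosis symbols 4 had rings (8.89%), 3 positive and 3 negative under both scalings (median −0.02 with TMM). They were smc1b.L, a meiotic cohesin subunit gene (745 and 1228 bases), hormad1.S, of the chromosome axis (236 and 382 bases), atm.L, a DNA damage kinase (523 bases), and pds5b.L, a cohesin regulator (283 bases). The hormad1.S host averaged 168 FPKM, yet its 236-base ring had 5, 28 and 19 reads in atrazine and 19, 10 and 7 in control. Of 36 germ granule symbols 2 had a ring (5.56%), ddx4.L and tdrd6.L (402 bases, 27 reads), both with negative values (median −0.56), of which 1 was positive with total-read scaling. The 4 rings of LOC108716375, the piwi-like protein 1 gene, are not in this count because the host has no symbol in v10.1.

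Genes whose proteins act on ring formation also hosted rings. Of 38 measured symbols 4 did (10.5%), with 5 rings, 2 positive and 3 negative (median −0.21), against 3 positive and 2 negative with total-read scaling. The adar.S gene encodes the enzyme that edits double-stranded RNA, which in mammals is known to oppose ring formation. Its 270-base ring had 60, 54 and 46 reads in atrazine and 67, 74 and 79 in control. Its 451-base ring, which shares that ring's 3′ end, had 20, 40 and 17 reads in atrazine and 49, 56 and 37 in control. These counts are not scaled to library depth, which was lower on average in atrazine. The log2 fold changes were −0.21 and −0.60, with unadjusted p of 0.574 and 0.186 in edgeR. The group also held rings of LOC108700429 (ilf2.S, 171 bases, 46 reads) and of the splicing factor gene hnrnpm.L (265 bases, 22 reads).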

How the data were processed

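Testis RNA of 3 atrazine-exposed and 3 control samples was measured, per the labels' protocols, in stranded libraries of rRNA-depleted total RNA. CASAVA 1.8, Bowtie2 and HISAT2 are named in the submitters' processing notes, with no role. The sources used here name no circRNA caller, mRNA quantifier or genome build, and coordinates are printed as the files have them, counted from 1.

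Per the file headers, the circRNA table the authors deposited gives raw counts of junction reads, log2 normalized values, a catalog class, a host name and a predicted spliced length for each row. No count of 1 occurs in it, and the smallest count above 0 is 2. The deposited mRNA table gives FPKM per gene, and a signal headed as a count but not whole, which was used only to estimate depth as reads per library (7360633 to 15393440 in atrazine, 13784688 to 17018729 in control). In the circRNA table the headers shorten the control names given in the labels, so control libraries were assigned there by number. The lncRNA table was not used.

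Junction counts were tested with edgeR 4.0.16 in R 4.3.3 (quasi-likelihood, TMM factors, at least 2 reads in at least 3 libraries). FPKM values were tested as log2(FPKM + 1) with limma 3.58.1, on rows of at least 0.5 FPKM in at least 3 libraries, so fold changes of low rows are understated. The ring relative to its host was tested with limma on log2 CPM (TMM factors, prior count 2) minus log2(FPKM + 1). Tests were two-sided over the whole table with Benjamini-Hochberg adjustment and a threshold of 0.05, group the only term. DESeq2 1.42.0 was an alternative. An exact permutation test planned for the share of junction reads is not given, since the members were chosen by those counts. The scripts were tested on simulated data.

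Hosts were joined to mRNA rows by name, where the ring lay inside the locus of a single such row. By this rule 6 rings had no host row. Of 478 rings whose host is named only by a LOC or MGC number, 347 have a symbol in the RefSeq annotation of assembly v10.1, used for names only. L or S was taken from the chromosome, or from the host name where the ring is unplaced. Named rings are the 10 most read and the 5 with the smallest p each way in each ring test. Also named are the extremes of length, span and ratio to host, and the rings of the hosts with most members. The rule adds the best-read L and S pairs, up to 4 members per list and rows beside the limit. In some lists further members are named. The members and lists were chosen with earlier results of these data known. Some rings that this rule names are not reported here.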

Additional observations from a re-analysis of the deposited data

How the results depend on the processing

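Alternatives were run for the 10 rings, 10 hosts and 10 rings relative to host with the smallest p (5 each way). None of these changed direction. They were picked for small p in the same libraries, which favours a stable direction, so this is a description. Among all 849 rings 150 took the other sign with total-read scaling and 40 with median-of-ratios factors. The count of called rings was 0 under median-of-ratios factors, total-read scaling, no filter, rows read in all 6 libraries, DESeq2 and a limit of 5 reads, and 1 with limma on the deposited log2 values. That 1 was the 539-base ring of LOC108718337 (log2 fold change −2.24, adjusted p 0.00384, against 0.142 or more in its other alternatives). Leaving out each library in turn gave 0 to 0 called rings, 0 to 0 called rings relative to host, 0 to 1 called hosts, and a difference in the share of junction reads of 0.347 to 1.35 percentage points. The 1 host, without control replicate 1, was deposited as nthl1.S (log2 fold change 1.32, adjusted p 0.0464). Its deposited gene ID is psmc3.L in v10.1, so which gene it is remains unsure. It stood at 34.4, 30.8 and 32.5 FPKM in atrazine and 35.0, 11.1 and 13.8 FPKM in control. Rings with an unadjusted p under 0.05 numbered 18 in edgeR (2.12%, against 6.28% of all rows), 48 on rows read in all 6 libraries (5.65%, against 5.66%), 62 on the deposited log2 values (7.30%, against 9.07%), 9 without a filter (1.06%, against 0.494%), 6 in DESeq2 (0.707%, against 2.21%) and 10 without control replicate 2 (1.18%, against 4.08%). For hosts the count of 30 (4.01%, against 5.92%) became 136 without control replicate 1 (18.2%, against 19.0%), 6 without atrazine replicate 2 (0.802%, against 2.82%), 17 without control replicate 2 (2.27%, against 3.33%) and 10 without control replicate 3 (1.34%, against 3.30%). For rings relative to hosts the count of 9 (1.07%, against 6.57%) became 53 on rows read in all 6 libraries (6.29%, against 6.20%), 17 without atrazine replicate 1 (2.02%, against 7.91%), 4 without atrazine replicate 2 (0.475%, against 5.61%) and 5 without control replicate 2 (0.594%, against 4.42%). Taking only the members with at least 5 reads in each library, in the same fits, the counts were 9 of 345 rings (2.61%), 12 of 321 hosts (3.74%) and 0 of 342 rings relative to host. The cause of these shifts was not tested. The median log2 fold change of the rings was −0.01 on rows read in all 6 libraries and 0.06 with total-read scaling. With that scaling 44.3% of the rings had a negative value, against 62.0% with TMM. The median was −0.24 with median-of-ratios factors and in DESeq2, −0.08 without control replicate 2 and −0.58 with limma on the deposited log2 values. Relative to host, the median of −0.13 became 0.02 on rows read in all 6 libraries. With at least 5 reads per library the median length was 381 bases, the median span 1685 bases and the share of hosts with several rings 5.25%. Weighted by reads, the median length was 392 bases.

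Deviations from the group means of same-numbered libraries correlated at −0.06 in all 3 pairs across the rings and at 0.03, −0.35 and −0.04 across mRNA rows. Across mRNA rows, differently numbered pairs lay between −0.36 (atrazine replicate 3 and control replicate 1) and 0.41 (atrazine replicate 3 and control replicate 2). The numbers were therefore not taken to pair the samples. With the replicate block, 0 rings, 0 hosts and 0 rings relative to host were called, and 13, 19 and 9 had an unadjusted p under 0.05 (1.53%, 2.54% and 1.07%, against 1.11%, 4.33% and 6.43% of all rows in those fits). The difference in share with the block was 0.918 percentage points.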

Other observations

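Several well-read rings were listed at 0 or near it in a single library while the level of the host mRNA there was low for some and not for others. These were chosen after their values were seen. The dmd.1.L ring of 1761 bases, at 0 reads in control replicate 3, had a host at 15.5, 7.56 and 14.8 FPKM in atrazine and 10.2, 22.7 and 5.22 FPKM in control. The plppr5.L ring of 548 bases was also at 0 there, and its host had 8.68, 6.03 and 17.1 FPKM in atrazine and 12.6, 7.22 and 0.160 FPKM in control. By contrast, the 372-base mki67.S ring, from the gene of a proliferation marker, had 16, 23 and 12 reads in atrazine and 28, 34 and 0 in control, with host levels of 16.04, 23.8 and 26.2 FPKM in atrazine and 13.6, 27.4 and 26.9 FPKM in control. An 860-base ring of ppm1b, a phosphatase gene, had 52, 2 and 0 reads in atrazine and 4, 3 and 56 in control, so 1 library of each group held nearly all its reads.

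For the 5 rings of 100 reads or more that ranged over 10-fold within a group, the other rings of the host had few reads. The other rings of ddx17.L summed to 13, 4 and 3 reads in atrazine and 6, 8 and 9 in control, so they were not low in control replicate 3, where the 370-base ring had 4 reads. A count of 0 in this table can also stand for a single read, since no count of 1 occurs.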
